A study of Mus musculus with 12 samples.

Results

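The growth hormone pathway of the liver was followed through 10 genes: the receptor Ghr, the kinase Jak2, the transcription factors Stat5a and Stat5b, the feedback inhibitors Socs2, Socs3 and Cish, and the transcription factors Bcl6, Cux2 and Onecut1. They were chosen by gene symbol from the 18560 genes measured, and each symbol matched 1 gene. RNA was sequenced from whole livers of mice aged 12 months in 4 groups of 3 libraries: males with the genotype OXR1A-/- (KO males), WT males, OXR1A-/- females (KO females) and WT females. OXR1A is a protein isoform made from the Oxr1 gene, which helps cells withstand oxidative stress, and the series compared liver transcription with and without it. No source used here names the strain, says how the OXR1A allele was made, or tells whether the 3 libraries of a group came from separate mice, so p-values measure only the spread between these samples, which may be technical.

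Pituitary growth hormone binds its receptor on the hepatocyte, where JAK2 phosphorylates the receptor and the STAT5 proteins. Phosphorylated STAT5 dimers bind DNA and turn on target genes, among them those for SOCS2 and CISH, which act back on the receptor and damp the signal. Male rodents release the hormone in pulses and females more evenly, and in mouse liver this difference sets much of the sex bias of transcription: BCL6 is a repressor that is higher in males and competes with STAT5 for DNA, and CUX2 is a female-specific regulator that represses male-biased genes.

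The samples bore the marks of their labels, with exceptions. Albumin (Alb) was listed at 31720 to 45904 FPKM (fragments per transcript length and per library depth) in all 12 libraries. Depth is not stated, and was estimated from the steps between low values at 19800000 to 30800000 mapped fragments per library. Oxr1 was at 25.0, 22.9 and 22.1 FPKM in KO males, 23.3, 12.1 and 18.4 FPKM in WT males, 20.1, 19.7 and 21.0 FPKM in KO females and 17.4, 17.5 and 20.7 FPKM in WT females. Its value covers all isoforms of the gene and so does not check the loss of OXR1A. A trace of transcripts of the other sex stood in KO male 3 (Xist at 0.82 FPKM) and in KO female 1 and WT female 1 (Eif2s3y at 0.85 and 1.89 FPKM).

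The palindromic STAT motif TTCNNNGAA, which reads the same on both strands, was sought in the RefSeq promoter windows of these genes (GRCm38.p6, 250 bases before to 50 after each annotated start). RefSeq gave 14 windows for 9 of the 10 genes, with none for Socs2. The motif stood in 4 windows of 3 genes (Cish, Socs3 and Bcl6), against 8.3% of all 32851 windows and 9.55% of all 27025 genes with a window. Cish held 2 motifs, a number reached by 0.457% of windows, and an inner start of Bcl6 held 3, as in 0.0335% of windows. The stretches that hold the motifs are shown 5′ to 3′ with the motif in capitals, since Cish and Bcl6 had the widest spread of the 10 genes among WT males.
Cish, chr9:107296654-107296683, plus strand: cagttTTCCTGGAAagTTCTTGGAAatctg
Socs3, chr11:117969462-117969570, minus strand: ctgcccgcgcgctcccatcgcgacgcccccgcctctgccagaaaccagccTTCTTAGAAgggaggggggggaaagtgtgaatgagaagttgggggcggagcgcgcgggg
Bcl6, outer start, chr16:23988912-23989020, minus strand: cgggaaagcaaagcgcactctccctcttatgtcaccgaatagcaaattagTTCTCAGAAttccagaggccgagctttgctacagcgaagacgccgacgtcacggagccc
Bcl6, inner start, chr16:23981313-23981501, minus strand: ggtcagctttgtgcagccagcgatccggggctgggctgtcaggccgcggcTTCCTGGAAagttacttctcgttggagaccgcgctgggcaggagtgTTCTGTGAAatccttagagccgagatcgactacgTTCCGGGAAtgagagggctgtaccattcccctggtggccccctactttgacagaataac
In the annotation of GENCODE release M21, the Cish stretch lies in the first exon, within the 5′ UTR of a transcript that starts further upstream. The Socs3 stretch and the inner Bcl6 stretch lie in introns of longer transcripts of their own genes, and the outer Bcl6 stretch lies upstream of the gene. The first bases after the Socs3 start and the inner Bcl6 start were found in no M21 transcript of their own gene. Those after the Cish start and the outer Bcl6 start were found in one. A match of these letters is a description of the sequence, not a measured binding site.

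**Figure D1:**
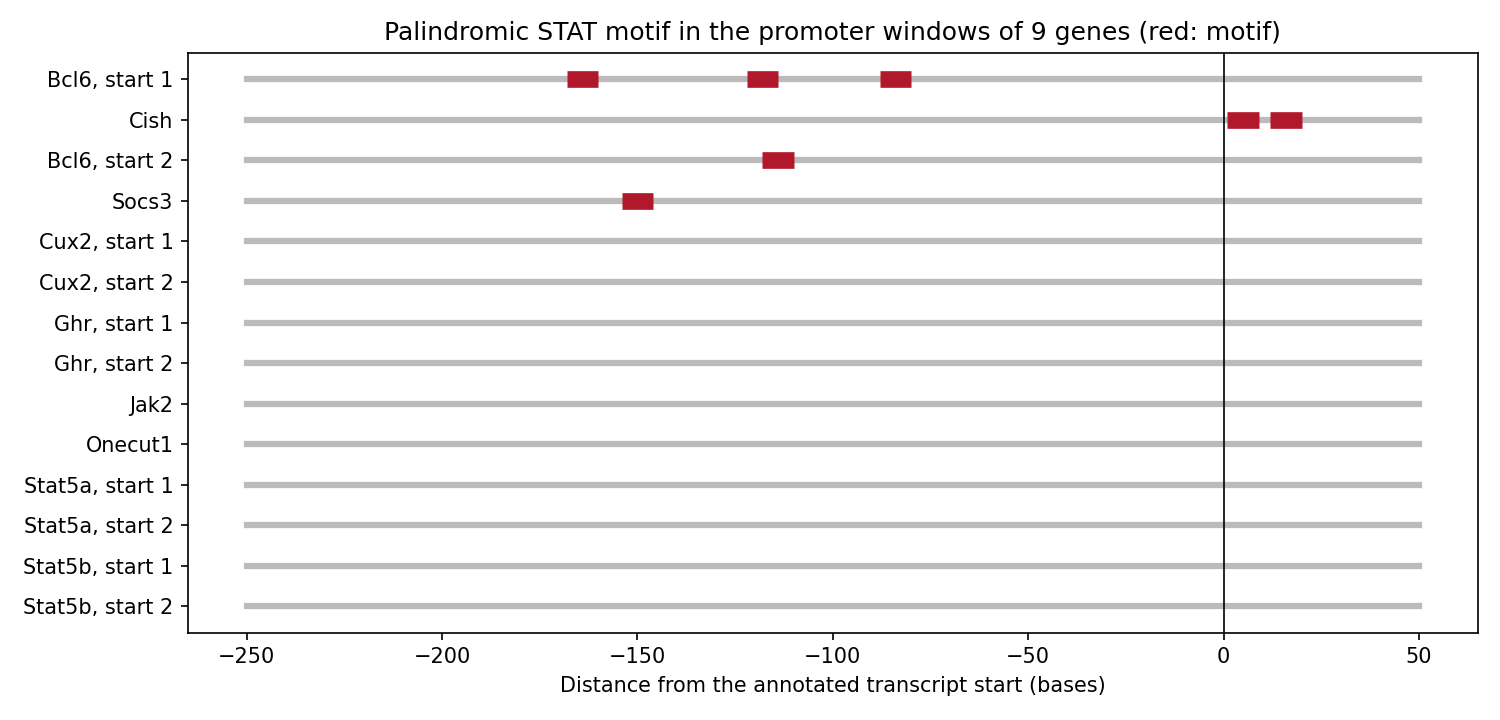
Position of the motif TTCNNNGAA (red) in each of the 14 promoter windows (grey), in bases from the annotated transcript start. The pair in Cish begins at base 1 after the start, the 3 of the inner Bcl6 start (drawn as start 1) lie between bases -168 and -80, and those of the outer Bcl6 start and of Socs3 begin at bases -118 and -154.

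The 10 genes differed widely in level per transcript length. Ghr averaged 249 FPKM over the 12 libraries, far above Stat5b at 13.7, Socs2 at 13.4, Bcl6 at 9.35 and Cish at 6.71 FPKM. Stat5a at 4.33, Jak2 at 4.23, Cux2 at 3.55, Socs3 at 3.50 and Onecut1 at 3.29 FPKM followed. The ranges of neighbours in this order overlapped between libraries from Stat5b down, and those of Ghr and Stat5b did not. In whole tissue, fewer cells of a type and less RNA per cell cannot be told apart.

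**Figure D2:**
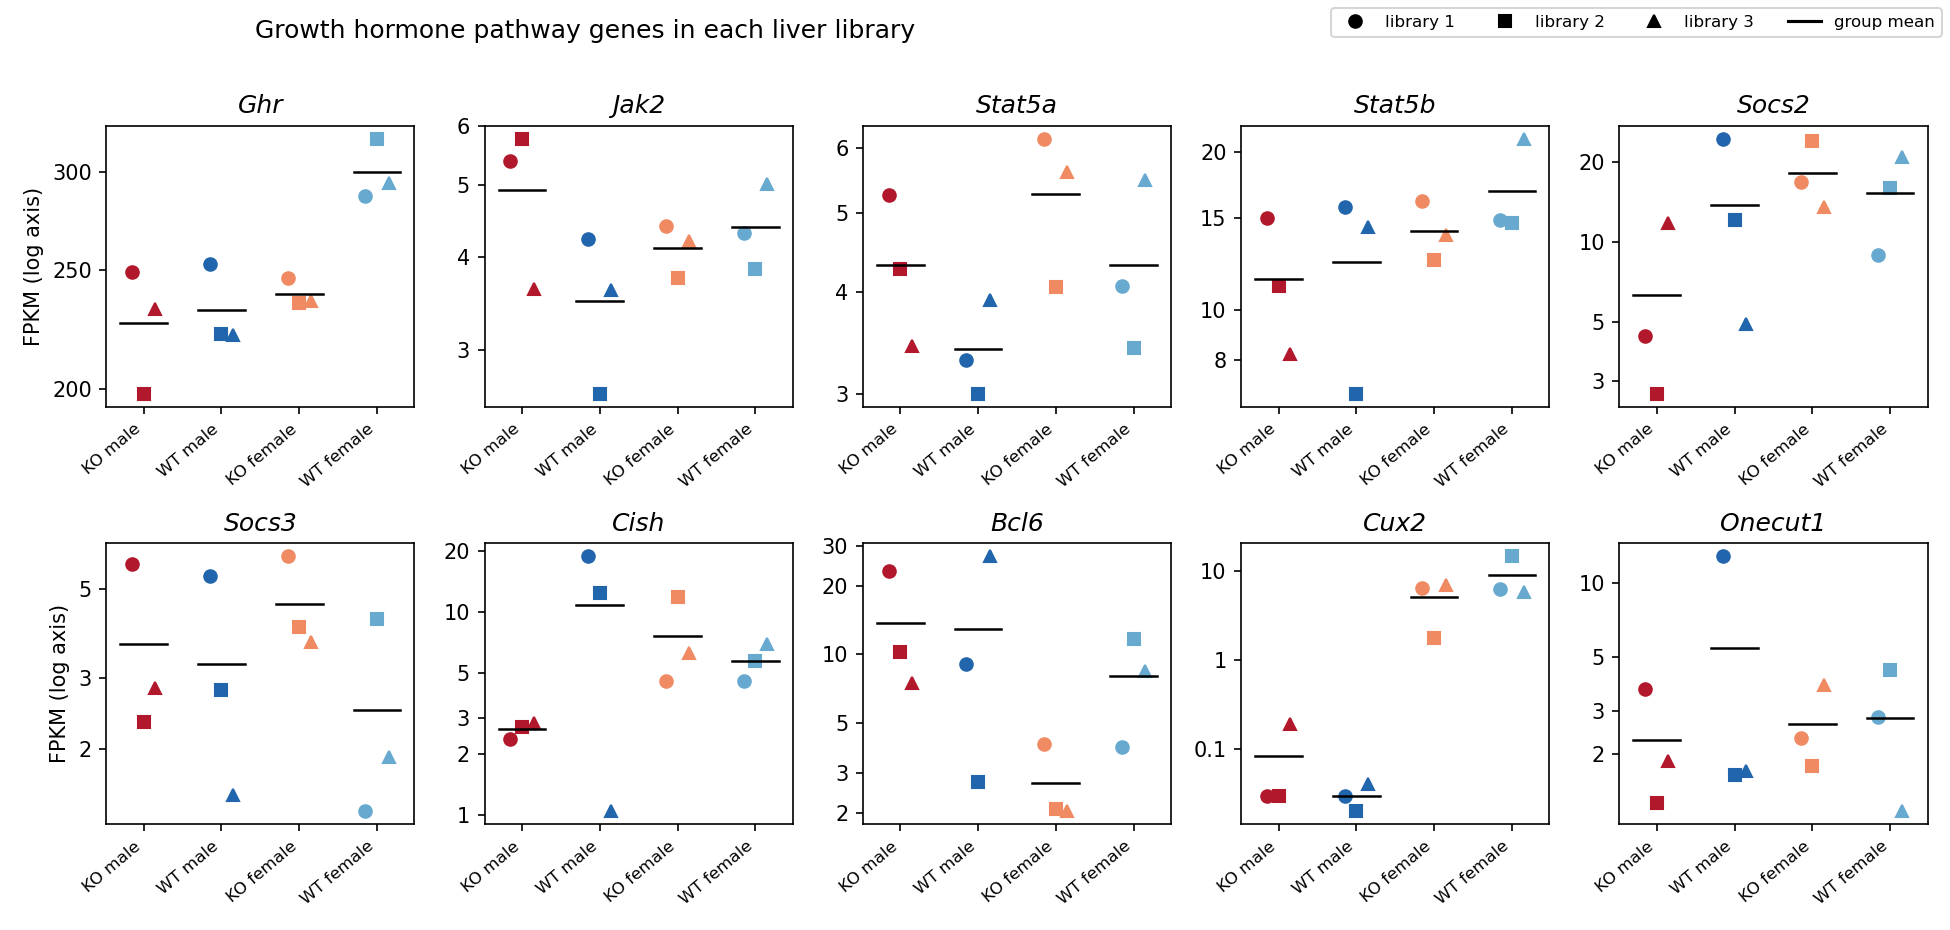
FPKM (log axis, a separate scale for each gene) of the 10 genes in every library, with the group mean as a black bar. Ghr stays between 198 and 319 FPKM in all libraries, Cux2 separates the sexes, and Cish is tight in KO males (2.38 to 2.86 FPKM) and wide in WT males (1.05 to 18.9 FPKM).

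None of the 10 genes passed the test between genotypes in either sex. The test was limma on log2(FPKM + 1) over all 12 libraries, with p-values adjusted by Benjamini and Hochberg over the 11514 genes that had at least 1 FPKM in at least 3 libraries, and a gene was called at an adjusted p under 0.05. All 10 genes passed that filter, Cux2 through the females alone. In males 0 of 10 were called, against 2.55% of all tested genes. Their median log2 difference of KO minus WT males was 0.02, beside 0.19 for all tested genes, 5 of 10 were higher in KO males, and 0 of 10 separated the groups without overlap, as 23.7% of all tested genes did. One gene, Jak2, had an unadjusted p under 0.05, and 23.9% of all tested genes had one.

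In females 0 of 10 were called between KO and WT, where only 0.0174% of all tested genes were. The median log2 difference of the 10 genes was -0.04, beside 0.00 for all tested genes. Ghr alone separated KO from WT females without overlap, a pattern found in 17.6% of all tested genes, and it alone had an unadjusted p under 0.05, as 6.13% of all tested genes did. The difference between the KO effects in males and in females, tested as an interaction, was called for 0 of the 10 genes and for 0.0261% of all tested genes. At an unadjusted p under 0.05 the interaction held for 0 of the 10 genes and for 9.03% of all tested genes.

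Between the sexes, Cux2 stood apart, but it passed the filter through the females alone, so its difference was bound up with the filter. In the comparison of WT males with WT females 2 of 10 were called, Cux2 and Ghr, both lower in males, against 13.4% of all tested genes called in either direction and 11.1% called lower. The same 2 genes separated WT males from WT females without overlap, and 40.2% of all tested genes did so. Both had an unadjusted p under 0.05, as did 32.8% of all tested genes. The call of Ghr was lost in 15 of 21 alternative analyses. Between KO males and KO females only Cux2 was called, 1 of 10 against 3.67% of all tested genes, and lower in males, as 2.01% of all tested genes were. This call was lost without the libraries with a trace of the other sex. Without overlap, 4 of 10 separated KO males from KO females (Cux2, Socs2, Cish and Bcl6), against 22.1% of all tested genes, and 3 of these, all but Cish, had an unadjusted p under 0.05, as 15.5% of all tested genes did.

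**Figure D3:**
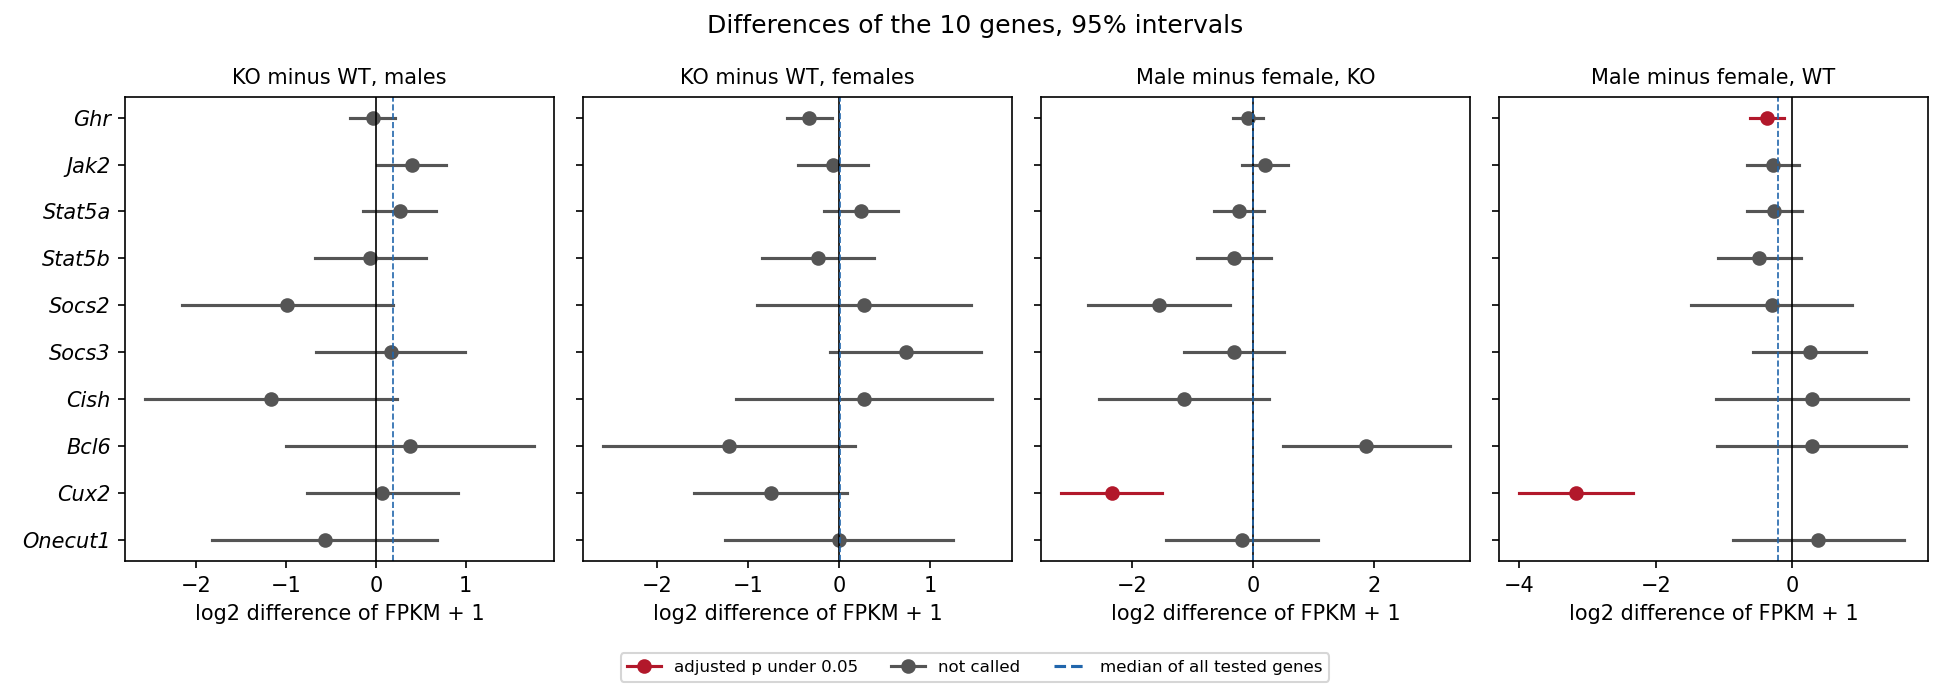
Log2 differences of FPKM + 1 (points) with 95% intervals from limma for the 10 genes in 4 comparisons, with the median of all tested genes as a dashed line. Only Cux2 in both sex comparisons and Ghr in the WT sex comparison are drawn in red, for an adjusted p under 0.05; the intervals of Cish, Bcl6, Onecut1 and Socs2 are the widest.

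Markers of other cell types also differed between KO and WT males. Summed FPKM of the macrophage markers ran from 443 to 1092 in KO males and from 210 to 389 in WT males. Of the 14 tested markers 6 were called higher, against 2.13% of all tested genes. Endothelial markers summed to 172 to 192 FPKM in KO males and 113 to 128 FPKM in WT males, with 6 of 12 called higher. Stellate cell markers summed to 147 to 231 FPKM in KO males and 96.9 to 119 FPKM in WT males, with 1 of 10 called higher. Hepatocyte markers summed to 53264 to 58710 FPKM in KO males and 68200 to 77837 FPKM in WT males, with 0 of 9 called. With WT male 3 left out, 0 macrophage and 2 endothelial markers were called higher, and with median-ratio scaling 1 and 4. Without the trace libraries it was 1 and 2, and in the fit of only the 2 groups of males 0 markers of these 3 cell types were called. In females the macrophage sums were 605 to 880 FPKM in KO and 517 to 787 FPKM in WT livers. In WT livers, 8 of 14 macrophage, 10 of 12 endothelial and 4 of 10 stellate cell markers were called lower in males than in females. Of all tested genes 11.1% were. Between KO males and KO females 0 markers of these 3 cell types were called. The part of these cells in the members' values was not tested, in the genotype or the sex comparisons.

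Ghr encodes the growth hormone receptor, whose extracellular part also circulates as the hormone's binding protein. It stood at 249, 198 and 232 FPKM in KO males and at 253, 222 and 221 FPKM in WT males. It stood at 246, 235 and 236 FPKM in KO females and at 287, 319 and 294 FPKM in WT females. The 3 WT females were above all other 9 libraries, and the other 3 groups overlapped. The group means were 227 ± 25.9, 232 ± 18.0, 239 ± 6.19 and 300.2 ± 17.1 FPKM in KO males, WT males, KO females and WT females (SD, n = 3 each).

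Against WT females, Ghr was lower in WT males by a log2 difference of -0.37 (SE 0.11, limma adjusted p = 0.0499), a 1.30-fold lower mean. The call is at the edge of the threshold: it was lost in 15 of 21 alternative analyses, with adjusted p from 0.0224 to 0.800, and with libraries rescaled by their median ratio the difference was -0.07. Leaving out any 1 of the 6 females, WT male 2, WT male 3 or KO male 3 was enough to lose it. In females the log2 difference of KO minus WT was -0.33 (SE 0.11, 95% interval -0.57 to -0.08), a 1.26-fold lower mean, with an unadjusted p of 0.0139 and a limma adjusted p of 0.740. In males it was -0.04 (SE 0.11, 95% interval -0.28 to 0.21). The interaction for Ghr, 0.29 (SE 0.16, limma adjusted p = 0.544), did not pass the test, nor did KO males against KO females (-0.08, SE 0.11). The Ghr value covers several RefSeq transcripts and does not separate the membrane receptor from the short form that encodes the binding protein.

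Jak2 encodes the kinase that the receptor carries. It stood at 5.38, 5.77 and 3.62 FPKM in KO males, 4.23, 2.62 and 3.61 FPKM in WT males, 4.40, 3.75 and 4.21 FPKM in KO females and 4.31, 3.85 and 5.01 FPKM in WT females. KO males 1 and 2 were the highest of all 12 libraries, while KO male 3 lay within the WT males. The log2 difference between KO and WT males was 0.40 (SE 0.17, 95% interval 0.02 to 0.78), with an unadjusted p of 0.0421 and a limma adjusted p of 0.194. The median tested gene differed by 0.19 in the same comparison.

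Stat5a and Stat5b encode the paired transcription factors of the pathway, which lie next to each other on chromosome 11 and of which STAT5B is the main form in liver. Stat5b stood at 15, 11.1 and 8.22 FPKM in KO males, 15.7, 6.90 and 14.4 FPKM in WT males, 16.1, 12.4 and 13.9 FPKM in KO females and 14.8, 14.6 and 21.2 FPKM in WT females. Stat5a stood at 5.26, 4.27 and 3.43 FPKM in KO males, 3.30, 3 and 3.91 FPKM in WT males, 6.16, 4.05 and 5.61 FPKM in KO females and 4.07, 3.41 and 5.48 FPKM in WT females. KO and WT overlapped in both sexes for both genes, as did all other pairs of groups except WT males and KO females for Stat5a, and no comparison was called.

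Per transcript length there was more Stat5b than Stat5a in every library. The ratio of Stat5b to Stat5a was 2.85, 2.60 and 2.40 in KO males and 4.76, 2.30 and 3.68 in WT males. It was 2.62, 3.07 and 2.47 in KO females and 3.65, 4.29 and 3.87 in WT females. The 3 KO females lay below the 3 WT females, and the males overlapped. The ratio was formed after the values were seen and has no test. Log2 values in WT male 2 fell with transcript length, by a slope of -0.215 per log2 length, against 0.093 and 0.029 in WT males 1 and 3. That library had the least Stat5b and Jak2 of all 12. The part of transcript length in these low values and in the ratio was not tested. The transcripts share stretches of 50 bases (8.21% of those of Stat5a and 11.0% of those of Stat5b), so part of the reads of either gene could be split between them.

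Cish, a STAT5 target whose protein inhibits signalling at the receptor, was the most evenly low gene in KO males and the most variable gene of the set in WT males. It stood at 2.38, 2.73 and 2.86 FPKM in KO males and at 18.9, 12.5 and 1.05 FPKM in WT males. WT males 1 and 2 were several times above every KO male, and WT male 3 was below every one of them. These values rest on an estimated 165, 200 and 173 fragments in KO males and 1252, 1094 and 62 fragments in WT males.

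The mean of Cish was 2.66 ± 0.248 FPKM in KO males and 10.8 ± 9.04 FPKM in WT males (SD, n = 3 each), 4.07-fold lower in KO males. On the log2 scale the difference was -1.17 (SE 0.64, 95% interval -2.57 to 0.24, limma adjusted p = 0.282), which did not pass the test. Single WT libraries moved this value in both directions: the difference was -2.17 without WT male 3 (limma adjusted p = 0.0226), -0.53 without WT male 1 (limma adjusted p = 0.571) and -0.81 without WT male 2. The adjusted p ran from 0.0226 to 0.571 over 21 alternative analyses, and Cish was lower in KO males in all of them.

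In females Cish stood at 4.57, 11.9 and 6.32 FPKM in KO livers and at 4.58, 5.75 and 6.95 FPKM in WT livers. The 2 groups overlapped, and the log2 difference was 0.27 (SE 0.64, limma adjusted p = 0.965). The KO males lay below all 6 females. Their log2 difference from KO females was -1.15 (SE 0.64, 95% interval -2.55 to 0.26, limma adjusted p = 0.449), a 2.86-fold lower mean without overlap that did not pass the test. That SE comes from a spread pooled over the 4 groups. The SD of log2(FPKM + 1) was 1.75 in WT males, against 0.10 in KO males and 0.62 in KO females. In WT livers, males minus females, Cish differed by 0.29 (limma adjusted p = 0.773), and by 1.29 (limma adjusted p = 0.0292) without WT male 3.

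Socs2 encodes the SOCS protein that brings the growth hormone receptor to ubiquitin ligases, and mice that lack it grow large. It stood at 4.41, 2.68 and 11.8 FPKM in KO males and at 24.5, 12.1 and 4.92 FPKM in WT males. It stood at 16.9, 24.0 and 13.5 FPKM in KO females and at 8.90, 16 and 20.9 FPKM in WT females. KO males 1 and 2 were the lowest of all 12 libraries, WT male 3 was the next, and KO male 3 lay just below WT male 2.

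The log2 difference of Socs2 between KO and WT males was -0.98 (SE 0.54, 95% interval -2.16 to 0.19, limma adjusted p = 0.278), a 2.20-fold lower mean that did not pass the test. Leaving out 1 library at a time moved it between -1.53 (without WT male 3) and -0.47 (without WT male 1). Against KO females it was -1.56 (SE 0.54, 95% interval -2.73 to -0.38), with an unadjusted p of 0.0139 and a limma adjusted p of 0.166. The mean was 2.88-fold lower in KO males, and all 3 KO males lay below all 3 KO females. In WT the sexes overlapped, with a log2 difference of -0.30 (SE 0.54). The interaction, -1.26 (SE 0.76, limma adjusted p = 0.546), did not pass the test.

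Socs3 encodes the SOCS protein best known for damping cytokine signals through STAT3, and it is also induced by growth hormone. It stood at 5.78, 2.34 and 2.84 FPKM in KO males, 5.40, 2.81 and 1.54 FPKM in WT males, 6.05, 4.02 and 3.69 FPKM in KO females and 1.40, 4.21 and 1.91 FPKM in WT females. The groups overlapped in both sexes. The log2 difference was 0.16 (SE 0.38) between KO and WT males and 0.73 (SE 0.38, 95% interval -0.10 to 1.56, limma adjusted p = 0.833) between KO and WT females.

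Bcl6 encodes the repressor that binds STAT5 sites and whose own gene STAT5 represses. It stood at 23.4, 10.3 and 7.45 FPKM in KO males and at 9.03, 2.74 and 27.2 FPKM in WT males. It stood at 4.03, 2.08 and 2.03 FPKM in KO females and at 3.89, 11.7 and 8.43 FPKM in WT females. WT male 3, with the least Cish and Socs2 of the WT males, had the most Bcl6 of all 12 libraries. KO males all lay above KO females, while WT males and WT females overlapped.

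The log2 difference of Bcl6 between KO males and KO females was 1.88 (SE 0.63, 95% interval 0.49 to 3.26), a 5.05-fold higher mean, with an unadjusted p of 0.0122 and a limma adjusted p of 0.154. For WT males against WT females it was 0.29 (SE 0.63, limma adjusted p = 0.774). In females, KO minus WT, it was -1.21 (SE 0.63, 95% interval -2.60 to 0.17, limma adjusted p = 0.833), with means of 2.71 ± 1.14 FPKM in KO females and 8 ± 3.91 FPKM in WT females (SD, n = 3 each). WT female 1 lay just below KO female 1, so those groups overlapped. In males it was 0.38 (SE 0.63), and the interaction was 1.59 (SE 0.89, limma adjusted p = 0.544). None of these passed the test.

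Bcl6 is also made by some lymphocytes, whose markers were low. Summed lymphocyte markers ran from 7.49 to 34.1 FPKM in KO males, 9.23 to 18.2 FPKM in WT males, 14.0 to 36.6 FPKM in KO females and 12.4 to 22.1 FPKM in WT females, and none of the 8 tested markers was called between genotypes in either sex. WT male 3, with the most Bcl6, had the lowest sum of the WT males. KO female 3, with the highest sum of all, had the least Bcl6 of all. KO male 2, with the highest sum of the KO males, had 10.3 FPKM of Bcl6, between the other KO males. The part of lymphocytes in the Bcl6 values was not tested. No marker of the list was listed at 0 in every library.

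Within a library, the ratio of 2 genes does not depend on how the library was scaled. The ratio of Cish to Bcl6 was 0.102, 0.265 and 0.384 in KO males and 2.09, 4.56 and 0.0386 in WT males. It was 1.13, 5.73 and 3.11 in KO females and 1.18, 0.492 and 0.824 in WT females. The 3 KO males and WT male 3 were the 4 lowest of the 12 libraries, and WT males 1 and 2 stood among the 4 highest.

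Socs2 gave a similar order. The ratio of Socs2 to Bcl6 was 0.189, 0.260 and 1.58 in KO males, 2.71, 4.40 and 0.181 in WT males, 4.18, 11.6 and 6.65 in KO females and 2.29, 1.37 and 2.48 in WT females. WT male 3 and KO males 1 and 2 were the 3 lowest, and the 3 KO females were above the 3 WT females for this ratio. Both ratios were formed after the values were seen and have no test.

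**Figure D4:**
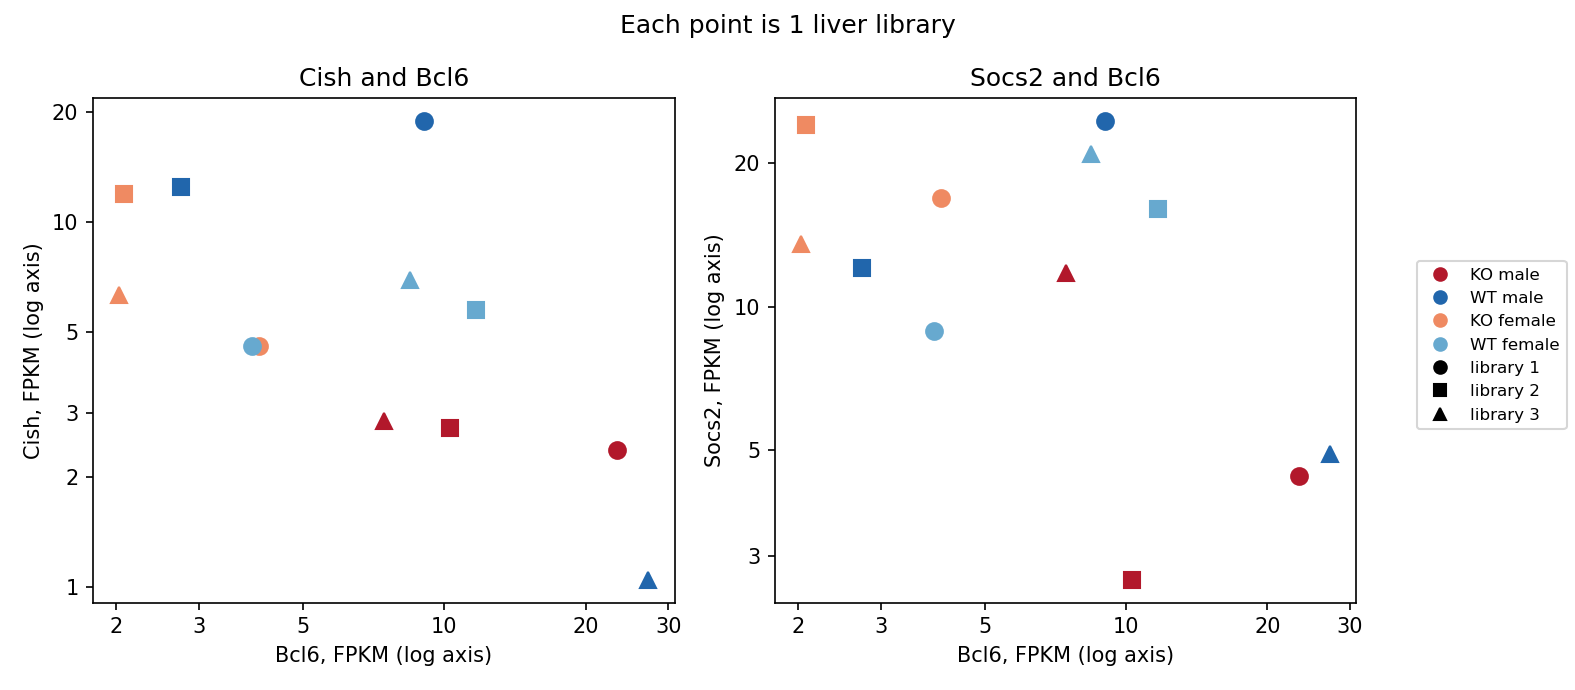
Cish (left) and Socs2 (right) against Bcl6, in FPKM on log axes, 1 point per library. The 3 KO males lie at 2.38 to 2.86 FPKM of Cish and 7.45 FPKM or more of Bcl6, and WT male 3 (blue triangle) lies beyond them with 1.05 FPKM of Cish and 27.2 FPKM of Bcl6, apart from the other 2 WT males.

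The spread within a group was itself unequal among these genes. In WT males the SD of log2(FPKM + 1) was 1.75 for Cish, 1.46 for Bcl6, 1.37 for Onecut1 and 1.05 for Socs2, against a median of 0.228 over all tested genes. Only 0.0521% of all tested genes had a larger SD than Cish in WT males, 0.174% a larger one than Bcl6, 0.252% than Onecut1 and 0.695% than Socs2. The highest WT male had 18.0 times the Cish, 9.93 times the Bcl6 and 4.98 times the Socs2 of the lowest.

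In KO males the order was another one. The SD of Cish was 0.10, below the median of 0.202, and 83.1% of all tested genes had a larger one. Socs2 (0.92) and Bcl6 (0.79) stayed variable in KO males, with 2.14% and 3.22% of all tested genes above them. Among females, the SD of Cux2 was 0.86 in KO and 0.68 in WT livers, and that of Bcl6 was 0.42 in KO and 0.70 in WT livers, beside medians of 0.149 in KO and 0.123 in WT females. Ghr was below the median SD in all 4 groups. With 3 libraries a group these spreads were not compared by a test.

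**Figure D5:**
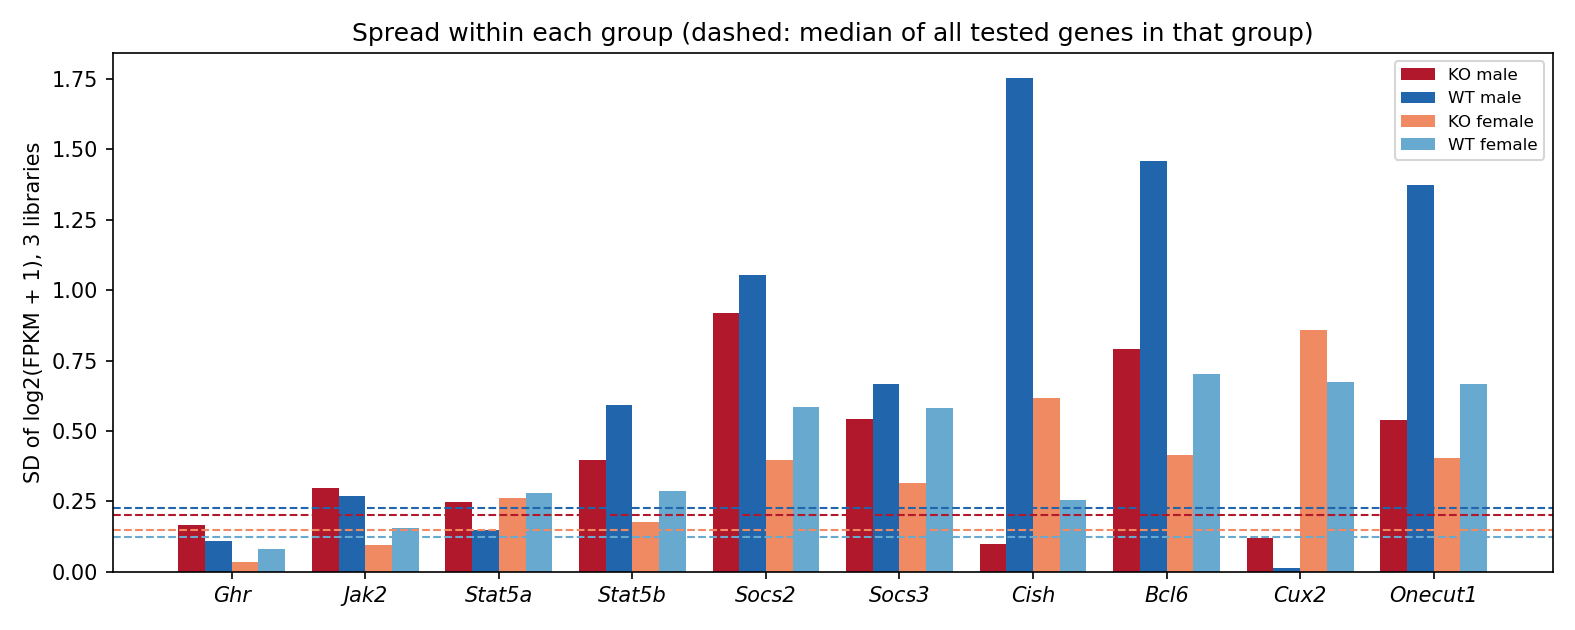
SD of log2(FPKM + 1) over the 3 libraries of each group, with the median SD of all tested genes in that group as a dashed line. Cish has the largest bar in WT males (1.75) and one of the smallest in KO males (0.10), and Ghr stays under its group's median throughout.

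Cux2 encodes the female-specific regulator of the set. It stood at 0.03, 0.03 and 0.19 FPKM in KO males and at 0.03, 0.02 and 0.04 FPKM in WT males. It stood at 6.55, 1.76 and 6.93 FPKM in KO females and at 6.37, 14.9 and 5.78 FPKM in WT females. Every female was above every male, in both genotypes. The male values rest on an estimated 3 or 4 fragments in each library, apart from 21 fragments in KO male 3, the library with a trace of Xist, and the female values on 178 to 1569.

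Cux2 was lower in males by a log2 difference of -2.34 (SE 0.38, limma adjusted p = 0.00544) in KO livers and -3.17 (SE 0.38, 95% interval -4.01 to -2.33, limma adjusted p = 0.000405) in WT livers. The pseudocount understates differences of this size: with 0.1 in its place they were -4.70 in KO and -6.00 in WT livers. Mean FPKM in males was 0.0164 of that in females in KO livers and 0.00333 of it in WT livers, both imprecise for the few male fragments. Cux2 entered the test through its level in females, so that a difference between the sexes was bound up with the filter. Without the 3 libraries with a trace of the other sex, the KO difference was -2.18 with a limma adjusted p of 0.0964, and so lost its call.

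The log2 difference of Cux2 between KO and WT females was -0.75 (SE 0.38, 95% interval -1.59 to 0.09, limma adjusted p = 0.833), with means of 5.08 ± 2.88 FPKM in KO females and 9 ± 5.07 FPKM in WT females (SD, n = 3 each). The groups overlapped, with KO female 2 the lowest and WT female 2 the highest, and the difference was -0.26 without KO female 2 and -0.37 without WT female 2. Over libraries left out 1 at a time the difference ran from -1.02 to -0.26. In males it was 0.07 (SE 0.38, limma adjusted p = 0.924), at levels near the limit of detection in both groups. That SE comes from a spread pooled over the 4 groups, and so mostly from the females. The SD of log2(FPKM + 1) was 0.12 in KO and 0.01 in WT males, against 0.86 in KO and 0.68 in WT females. The interaction was 0.82 (SE 0.54, limma adjusted p = 0.547).

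Onecut1 encodes HNF6, a transcription factor of hepatocytes and bile duct cells that growth hormone induces in rat liver. It stood at 3.70, 1.26 and 1.88 FPKM in KO males, 12.9, 1.65 and 1.70 FPKM in WT males, 2.33, 1.79 and 3.84 FPKM in KO females and 2.85, 4.41 and 1.17 FPKM in WT females. WT male 1 was far above the other 11 libraries, and all 4 groups overlapped. The log2 difference between KO and WT males was -0.57 (SE 0.57, limma adjusted p = 0.547), and 0.23 without WT male 1. That library also had the most Cish and Socs2 of the WT males. Its bile duct markers, of which none was called in any comparison, had the lowest sum of the WT males, at 43.1 FPKM of a range of 43.1 to 64.2 FPKM in WT males and 47.1 to 69.9 FPKM in KO males. The part of bile duct cells in the Onecut1 values was not tested.

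The other genes of the pathway were counted from lists that do not contain the 10 members. All lists were chosen with earlier results of these data known, so their counts beside all tested genes are a description. Of 20 tested genes of growth hormone receptor and JAK-STAT signalling, 0 were called between genotypes in either sex. Their median log2 difference of KO minus WT males was 0.17, beside 0.19 for all tested genes. Prlr, the prolactin receptor and a relative of Ghr, stood at 65.0, 41.2 and 46.6 FPKM in KO males and 25.4, 13.1 and 31.9 FPKM in WT males, without overlap (log2 difference 1.15, SE 0.30, limma adjusted p = 0.0599). It was lower in males than in females in both genotypes, with a log2 difference of -1.60 (SE 0.30, limma adjusted p = 0.0112) in KO livers, a call lost without KO female 3 or without the trace libraries, and -2.97 (SE 0.30, limma adjusted p = 7.89e-05) in WT livers.

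In WT livers 4 of these 20 genes were called lower in males than in females (Prlr, Lepr, Sh2b3 and Sh2b1), against 11.1% of all tested genes, and in KO livers 2 were (Prlr and Lifr), against 2.01%. Lepr, the leptin receptor, averaged 0.917 ± 0.307 FPKM in KO females and 3.10 ± 0.676 FPKM in WT females, without overlap (SD, n = 3 each). Its log2 difference was -1.10 (SE 0.17, limma adjusted p = 0.135), which did not pass the test. Lepr passed the filter only with the WT females counted, so its differences from them were bound up with the filter.

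Of 13 other inhibitors of the pathway (SOCS proteins, phosphatases and PIAS proteins), 1 rose in KO males, against 2.13% of all tested genes. Ptpn1, a tyrosine phosphatase that acts on JAK2, averaged 7.96 ± 2.19 FPKM in KO males and 4.24 ± 0.445 FPKM in WT males (SD, n = 3 each; log2 difference 0.75, SE 0.17, limma adjusted p = 0.0463). This call was lost in 16 of 21 alternative analyses, with limma adjusted p from 0.00571 to 0.276. None of the 13 was called in the other 3 comparisons between 2 groups.

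Among the pathway's targets, genes were called in males. Their list, too, was chosen with earlier results of these data known. Of 19 tested genes known as direct growth hormone or STAT5 targets, 3 rose in KO males, against 2.13% of all tested genes, and 3 fell, against 0.426%. Without WT male 3 it was 1 in each direction, with median-ratio scaling 2, and in the fit of only the 2 groups of males 0. Without the trace libraries 2 rose and 3 fell. In females 0 were called. Hsd3b5, a male-biased steroid dehydrogenase, stood at 1.24, 0.16 and 7.98 FPKM in KO males and 80.6, 73.5 and 69.1 FPKM in WT males (log2 difference -4.72, SE 0.53, limma adjusted p = 0.00196). Hsd3b5 passed the filter only with the WT males counted, so this difference was bound up with the filter. Cd36, a fatty acid carrier, stood at 78.4, 86.2 and 52.0 FPKM in KO males and 22.4, 14.5 and 19.5 FPKM in WT males (log2 difference 1.87, SE 0.20, limma adjusted p = 0.00172). Both calls were lost in the fit of the 2 groups of males alone and held in the other 20 alternatives. WT male 3 stood with the other WT males for both genes. For Cish it stood apart from them. For Bcl6 it was the highest of WT males that were all far apart, at 9.03, 2.74 and 27.2 FPKM.

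Igf1 encodes the main hormone that the liver makes in response to growth hormone. It stood at 182, 187 and 250 FPKM in KO males, 179, 242 and 202 FPKM in WT males, 231, 316 and 243 FPKM in KO females and 228, 297 and 241 FPKM in WT females. The genotypes overlapped in both sexes. Gadd45g, a stress-response gene on the same list, had 11.4, 16.6 and 10.6 FPKM in KO males and 96.5, 29.9 and 3.08 FPKM in WT males, where its lowest value was in WT male 3, as for Cish. It had 14.6, 30.01 and 23.8 FPKM in KO females and 2.08, 7.16 and 9.45 FPKM in WT females, without overlap (log2 difference 1.84, SE 0.88, limma adjusted p = 0.814), which did not pass the test.

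Of 28 male-biased genes that depend on growth hormone in mouse liver, 0 rose and 9 fell in KO males, against 0.426% of all tested genes called lower, with a median log2 difference of -0.99 beside 0.19 for all tested genes. These lists and the list of direct targets share genes such as Hsd3b5, and all were chosen with earlier results of these data known. Of 37 female-biased ones, 8 rose and 0 fell in KO males, against 2.13% of all tested genes called higher, with a median of 1.15. Without WT male 3, 3 of the male-biased genes fell and 5 of the female-biased genes rose, and in the fit of only the 2 groups of males it was 1 of each list. Without the trace libraries, KO male 3 among them, 8 of the male-biased genes fell and 5 of the female-biased genes rose. In females 0 of either list were called. Of 24 other regulators of sex-biased transcription, 0 were called between genotypes. In both genotypes, Tox, Trim24 and Rfx4 were the 3 of them called between the sexes, all lower in males. Trim24, a transcriptional cofactor, averaged 5.04 ± 0.197 FPKM in KO males and 2.66 ± 0.730 FPKM in WT males (SD, n = 3 each; log2 difference 0.74, SE 0.22, limma adjusted p = 0.0906).

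Of 31 acute phase genes and STAT3 targets, 9 rose, against 2.13% of all tested genes, and 0 fell in KO males, and 1, Orm2, rose in KO females, where 0.00869% of all tested genes rose. The count in KO males was 3 with median-ratio scaling, 4 without WT male 3 and 0 in the fit of only the 2 groups of males. It was 7 without the trace libraries. The call of Orm2 in females was lost in 7 of 21 alternatives. Orm2, an acute phase protein, averaged 80.8 ± 13.8 FPKM in KO females and 21.5 ± 5.24 FPKM in WT females (SD, n = 3 each). The median log2 difference of the list between KO and WT males was 0.72, beside 0.19 for all tested genes. Earlier results of these data were known when this list was chosen. Socs3, which STAT3 induces, was not among the genes called.

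For the 2 genes called in any comparison, the tested genes of most similar pattern were found by the root mean square difference of log2(FPKM + 1) over the 12 libraries, each gene centred on its own mean. Nearest to Ghr were Hyal3 (0.0985), Ctla2a (0.101) and Ctsf (0.102). Nearest to Cux2 were Cyp2g1 (0.432), St3gal6 (0.448) and Hamp2 (0.553), all higher in every female than in any male. Cyp2g1 stood at 0.22, 1.26 and 0.37 FPKM in KO males, 0.13, 0.17 and 0.20 FPKM in WT males, 6.50, 4.91 and 4.86 FPKM in KO females and 9.82, 14.0 and 7.58 FPKM in WT females. The libraries share depth and composition, so likeness here is a description.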

How the data were processed

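Poly(A) RNA of whole liver was sequenced in 12 libraries. The deposited values are FPKM, per the file headers, with 2 decimals. TopHat2 and mm10 are named in the submitters' processing notes, and no source used here names the quantifier, the annotation or the depth. Values were tested on the log2 scale, since the deposited FPKM are not counts: log2(FPKM + 1), limma 3.58.1 in R 4.3.3, group means over 12 libraries, variance trend, two-sided, Benjamini-Hochberg adjustment over 11514 genes. Standard errors (SE) and 95% intervals are limma's. They use a spread per gene pooled over the 4 groups, also where the groups differ in spread. Folds are ratios of mean FPKM. Depth was estimated from low values of FPKM times length in genes of 300 to 900 bases. The step size was kept that brought most of them within 0.15 fragment of a whole number. That share was 72.9% to 86.2%, against means of 28.4% to 33.1% over all step sizes tried. Since the step was chosen by this share, the share is no separate check of the depth. Fragment numbers behind a gene are estimates from that depth and carry no interval. The test was tried on simulated data. Named genes were the 10 members, Oxr1, the sex genes, up to 4 genes of smallest p per list and comparison, and the 3 genes nearest in pattern to each called member; Igf1, Alb and, in males, Gadd45g were added after their values were seen. The members and lists were chosen with earlier results of these data known. Sequences and gene names are from RefSeq (GRCm38.p6) and exons from GENCODE M21; 97.7% of genes had a transcript length. All columns were used. Alternatives were another pseudocount, filters, scalings, a length trend, a replicate block, fits of only the groups compared, and libraries left out.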

Additional observations from a re-analysis of the deposited data

Results flagged for a closer look

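None of the 10 members met a rule for a closer look, and groups of 3 libraries were not searched for outlying samples. In the other lists, 7 genes met a rule on the KO effects in males and females. Either the limma interaction (male effect minus female effect, log2) was called, or KO lay above WT in one sex and below it in the other without overlap. The second rule is not a test, and the share of all tested genes that meet it was not counted.

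Cyp2b9, a cytochrome P450 that is high in female liver, had the largest interaction of the 7, 5.80 (adjusted p = 0.00122). It averaged 92.3 ± 48.4 FPKM in KO males and 0.727 ± 0.291 FPKM in WT males, and 377 ± 74.6 FPKM in KO females and 431 ± 25.6 FPKM in WT females (SD, n = 3 each). Slc22a27, an organic anion transporter, had an interaction of 2.43 and Selenbp2, a male-biased gene, one of -2.15, each with a limma adjusted p of 0.0436. Selenbp2 averaged 17.4 ± 0.385 FPKM in KO males and 171 ± 51.4 FPKM in WT males, and 13.2 ± 1.22 FPKM in KO females and 28.2 ± 5.56 FPKM in WT females (SD, n = 3 each). It was lower in KO without overlap in both sexes, by a log2 difference of -3.18 in males (limma adjusted p = 2.73e-05) and -1.03 in females, which did not pass the test (limma adjusted p = 0.345).

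For 4 genes the sexes moved in opposite directions, but the interaction did not pass limma's test. Cyp2a4 (5.08, adjusted p = 0.0702), Il1rn (1.39, adjusted p = 0.363) and Tox (0.99, adjusted p = 0.325) were higher in KO than in WT males and lower in KO than in WT females. Mup21 (-2.83, adjusted p = 0.122) did the reverse.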

How the results depend on the processing

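Over 1015 values of the 10 genes under alternatives, 51 turned sign, none of them a called value; 16 lost a call (15 of them Ghr between WT males and females, 1 Cux2 between KO males and females) and 2 gained one (Cish without WT male 3). Leaving out 1 library at a time, 0 to 1 members were called between KO and WT males, 0 between KO and WT females, 0 in the interaction, 1 to 2 between WT males and females and 1 between KO males and females. Between WT males and females 1 member was called (Cux2, or Ghr with a mean of at least 5 FPKM, where Cux2 was not tested) with no filter, that filter, median-ratio scaling, quantile normalization, without the other-sex trace libraries and in the fit of only the groups compared. In KO livers 0 were called between the sexes with the 5 FPKM filter, under which Cux2 was not tested, and without the trace libraries.

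The number of genes called in the whole table depended on most choices. For KO against WT males (294) it was 174 with no filter, 145 with median-ratio scaling (68 up, 77 down), 140 with quantile normalization (61 up, 79 down), 900 with the length trend removed, 125 without the trace libraries, 3 in the fit of only these groups, and 58 to 570 without 1 library. Both scalings moved the median log2 difference of all genes, which was 0.19 between KO and WT males, to 0.00 (median-ratio) and -0.01 (quantile), and that of WT males against WT females, -0.21, to 0.03 and 0.01. For KO against WT females (2) it was 1 with pseudocount 0.1, with the 5 FPKM filter, with median-ratio scaling and with the length trend removed, 4 with no filter, 0 without the trace libraries, 6 in the fit of only these groups, and 0 to 12 without 1 library. For the interaction (3) it was 5 with pseudocount 0.1, 1 with the length trend removed, and 1 to 22. For the sexes in WT (1539) it was 904 with the 5 FPKM filter, 2352 with the length trend removed, 525 without the trace libraries, and 675 to 2081. For the sexes in KO (423) it was 658 with the length trend removed, 123 without the trace libraries, 216 in the fit of only these groups, and 201 to 637. The causes were not tested.

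Same-numbered libraries did not regularly deviate together. Of 18 correlations 6 were over 0.1, with a range of -0.32 to 0.58, and 10 of 36 libraries' comparisons were best with their own number. With 3 libraries a group this cannot decide whether equal numbers mark a shared litter or batch, and the main test used no pairing. With the replicate block, 132 genes were called between KO and WT males, 5 in the interaction and, of the members, 1 between WT males and females.

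These log2 differences, none called, turned sign. In males, KO minus WT, Stat5b was 0.14 without the trace libraries, Socs3 -0.020 with median-ratio scaling and -0.068 with quantile normalization, and Cux2 -0.018 with quantile normalization. Without 1 library, Ghr ran from -0.11 to 0.056, Stat5b from -0.40 to 0.14, Socs3 from -0.16 to 0.51, Bcl6 from -0.34 to 1.11 and Onecut1 from -0.97 to 0.23. In females, Socs2 was -0.019 without the trace libraries, and Onecut1 was 0.033 with pseudocount 0.1, 0.012 with median-ratio scaling, 0.051 with quantile normalization, 0.035 with the length trend removed and 0.10 without the trace libraries. Without 1 library, Jak2 ran from -0.14 to 0.011, Socs2 from -0.050 to 0.52, Cish from -0.067 to 0.54 and Onecut1 from -0.36 to 0.30. For the interaction, Stat5a was -0.19, -0.25 and -0.034 with median-ratio scaling, quantile normalization and the length trend removed, and Stat5b -0.081 and -0.045 with the first 2. Without 1 library, Stat5a ran from -0.13 to 0.15, Stat5b from -0.17 to 0.37 and Onecut1 from -0.97 to 0.23. For the sexes in WT, Stat5a was 0.0029 with quantile normalization and Bcl6 -0.10 without the trace libraries. Without 1 library, Socs2 ran from -0.81 to 0.24, Socs3 from -0.091 to 0.58, Cish from -0.35 to 1.29, Bcl6 from -0.45 to 1.01 and Onecut1 from -0.41 to 0.78. For the sexes in KO, Ghr ran from -0.15 to 0.010 and Onecut1 from -0.48 to 0.049.

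With 3 libraries a group, differences of the size of Cish or Socs2 in males were within the spread of WT males. Depth limits Cux2 in males, at an estimated 3 to 21 fragments a library. For the lists and the genes named from them, the alternatives were applied after the data were seen.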
